A study of Mus musculus with 5 samples.

Results

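Solute carriers are membrane proteins that move ions, metals, sugars, amino acids, nucleosides and other small molecules across the cell membrane and the membranes of organelles. They were followed here in MMTV-PyMT tumor organoids, which are grown from mouse mammary tumors that arise under a polyoma middle T oncogene driven by the MMTV promoter in the mammary epithelium. The members were chosen by their measured level: a gene symbol of the form Slc, number, a, number, and a mean of at least 20 CPM (counts per 1000000 counts of a plate) over the 5 plates analysed, with all wells of a plate summed and spike-in RNA removed. Of 289 solute carrier rows in the files, 71 reached this cutoff. Slc2a1, which reached it, and Slc7a11, which did not, were left out by the rule, and 70 members remained among 18384 gene rows. In all, 59 members lay above the cutoff in both matrix means, 5 only in the BME mean and 6 only in the Collagen I mean. The members nearest to the cutoff were Slc25a16 at 20.4 CPM, Slc19a1 at 20.5 CPM and Slc25a33 at 22.5 CPM, and the nearest carriers outside it were Slc25a35 at 19.4 CPM, Slc27a3 at 19.0 CPM and Slc29a3 at 18.9 CPM.

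Organoids expanded in BME, a basement membrane extract, were embedded again in BME, where they did not invade, or in fibrillar Collagen I, where they did. After 5 days they were digested to single cells and sorted into 384-well plates for SORT-seq, which counts the 3′ ends of transcripts. All cultures received the same medium with B27, N-acetyl-L-cysteine and FGF2, and no strain, age or number of donor tumors is given in the labels. The plates analysed were 3 of BME and 2 of Collagen I (replicates 1 and 3), and the other Collagen I plate of the study was not analysed here. Whether replicate plates of a matrix were filled from different cultures is not stated, so p-values measure the spread between plates only.

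The plates differed in more than the matrix. BME plates held 9077590, 9335870 and 10911700 counts, and Collagen I plates 1631980 and 1091410, so a member's level is less precise in Collagen I: the lowest member there rested on 18 counts in replicate 1 and on 10 in replicate 3. The file labels carry 1 flow cell for the BME plates and another for each Collagen I plate, so that matrix and sequencing run cannot be told apart. In Collagen I the summed fibroblast markers were higher (108 and 407 CPM against 27.2 to 34.3 CPM, 6 of 6 genes), as were dissociation stress genes (1306 and 1916 CPM against 355 to 471 CPM, 6 of 6), and the cycling genes were lower (780 and 808 CPM against 1465 to 1905 CPM, 10 of 10). Endothelial, immune and adipocyte markers summed to at most 6.13 CPM in any plate. The part of these differences in the results below was not tested, except where counts without cycling wells or without wells holding fibroblast transcripts are given.

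The members held 0.716%, 0.687% and 0.687% of the counts of the BME plates and 0.626% and 0.580% of those of the Collagen I plates. Carriers of the inner mitochondrial membrane, the SLC25 family, were the largest group in BME, with 17 members that summed to 2978, 2973 and 3093 CPM, or 43.3% of all member counts. In Collagen I they summed to 1845 and 1560 CPM, or 28.2%. Carriers of nucleosides and nucleotide sugars made up 8.38% of the member counts in BME and 16.1% in Collagen I, and those of sodium, protons, chloride, bicarbonate and phosphate 7.76% and 13.5%. Within the nucleoside group Slc29a1 alone went from a mean of 420 to 838 CPM, and the other 4 members together from 163 to 134 CPM. Metal carriers, at 16 members, summed to nearly the same level in both matrices, 808 to 865 CPM in BME and 874 and 782 CPM in Collagen I, although 10 of them changed. The 11 amino acid carriers summed to 1352 to 1444 CPM in BME and to 1195 and 1251 CPM in Collagen I.

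The first comparison was Collagen I against BME over all wells of a plate. Sums over a plate do not separate a change in the number of cells that express a gene from a change in RNA per cell. edgeR's quasi-likelihood test, fitted on all 11958 genes that passed the filter on low counts and with adjusted p-values over all of them, called 17 members higher and 21 lower in Collagen I. All 70 members passed the filter, 32 were not called, and for each called member the Collagen I plates lay outside the range of the BME plates. The background was 16.0% of all tested genes called higher and 17.7% called lower, against 24.3% and 30.0% of the members. A member above the cutoff in 1 matrix alone had to differ between the matrices in level: Slc4a4, Slc40a1, Slc41a1, Slc27a4, Slc39a13 and Slc15a2 passed through Collagen I, and the first 5 were called higher, and Slc11a2, Slc44a3, Slc19a1, Slc25a33 and Slc25a16 passed through BME, and the first 4 were called lower. Of the 59 members above it in both means, 12 were higher (20.3%) and 17 lower (28.8%). Members are more abundant than most tested genes, and of the 6493 tested genes at or above the cutoff 19.5% were called higher and 23.6% lower. The median log2 fold change of the members was -0.06, beside -0.04 over all genes. Without Collagen I replicate 1 the calls fell to 8 higher and 15 lower, with no member in the opposite direction. With wells holding fibroblast transcripts left out, together with wells that failed the study's filter on wells (given below), 37 members were called in place of 38. Wells with cycling transcripts were 53.4% to 55.8% of wells in BME and 21.5% and 24.6% in Collagen I. With cycling wells and wells that failed that filter left out, 16 members were higher and 14 lower, and 26 of the 38 calls remained. Leaving wells out also removes counts, and whether calls were lost through that was not tested. Among the named genes the calls of Slc7a1, Slc1a5, Slc16a1, Slc19a1, Slc25a10, Slc25a33, Slc35a4, Slc39a1, Slc45a4 and Slc23a2 were lost without cycling wells.

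**Figure D1:**
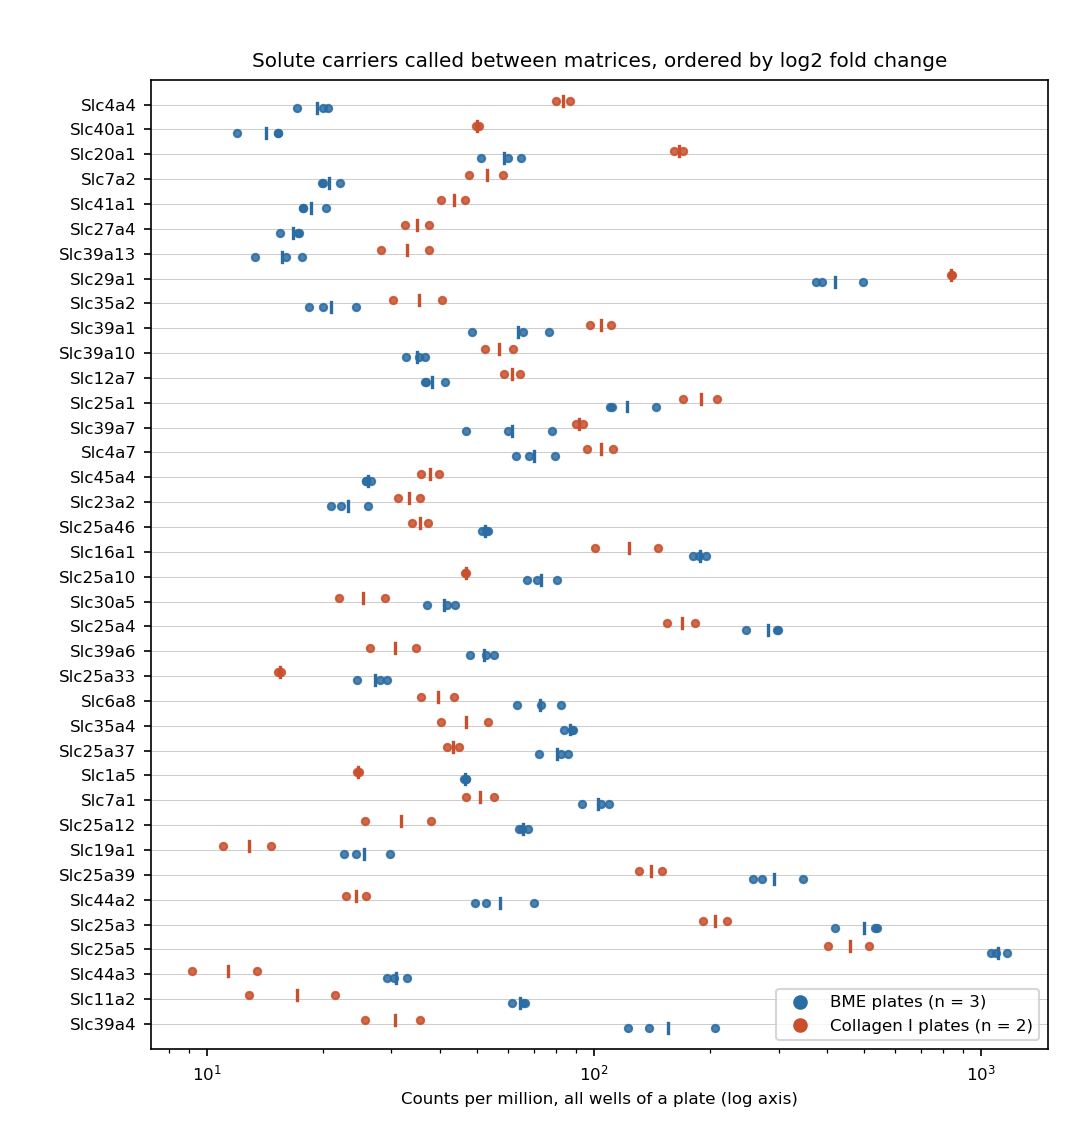
Level of the 38 solute carriers called between matrices, in CPM on a log axis, where each point is a plate (BME blue, Collagen I orange) and each tick a mean. Slc4a4 stands at the top, with BME plates from 17.1 to 20.6 and Collagen I plates at 79.7 and 87.0, and Slc39a4 at the bottom, with BME plates from 122 to 205 and Collagen I plates at 25.7 and 35.5.

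Among the carriers of sodium, protons, chloride, bicarbonate and phosphate, 4 of 8 rose in Collagen I (50.0%) and none fell. Of tested genes at or above the cutoff 19.5% were higher and 23.6% lower. Slc4a4, the electrogenic sodium bicarbonate cotransporter NBCe1 (chr5:88886818-89239653, plus strand, mm10), was at 20.6, 17.1 and 20.0 CPM in BME versus 87.0 and 79.7 CPM in Collagen I. The matrices did not overlap, and the increase was 4.37-fold in this gene that reached the cutoff through Collagen I alone (log2 2.13 ± 0.16, standard error here and below, adjusted p = 2.9e-06). Slc20a1, the sodium phosphate cotransporter PiT-1 (chr2:129198764-129211616, plus strand), was at 60.0, 51.1 and 64.8 CPM in BME versus 170 and 161 CPM in Collagen I, a 2.85-fold rise (log2 1.51 ± 0.15, adjusted p = 1.6e-05). Slc12a7, the potassium chloride cotransporter KCC4, rose 1.62-fold, and Slc4a7, the electroneutral sodium bicarbonate cotransporter NBCn1, 1.50-fold. The calls of Slc12a7 and Slc4a7 were lost in 1 and 2 of 15 alternative settings, each with a Collagen I plate left out. The 4 other members of this group were not called. The most abundant of them, Slc12a2, the sodium potassium chloride cotransporter NKCC1, was at 230 to 304 CPM in BME versus 300 and 272 CPM in Collagen I.

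Metal carriers split, with 6 of 16 higher and 4 lower, beside 19.5% and 23.6% of tested genes at or above the cutoff. Of those higher, Slc40a1, Slc41a1 and Slc39a13 reached the cutoff through Collagen I alone, and of those lower, Slc11a2 through BME alone. The direction of these members follows from the cutoff, so the split is partly set by the choice of members. Iron, zinc and magnesium carriers were among the metal carriers that changed most. Cells import iron through Slc11a2 (DMT1) and export it through Slc40a1 (ferroportin), the only known iron exporter of mammalian cells. Slc40a1 (chr1:45908068-45926523, minus strand) was at 15.3, 12.0 and 15.3 CPM in BME versus 49.6 and 50.4 CPM in Collagen I, and rose 3.54-fold (log2 1.82 ± 0.20, adjusted p = 3.7e-05). Slc11a2 (chr15:100387898-100425072, minus strand) was at 66.6, 65.7 and 61.4 CPM in BME versus 21.4 and 12.8 CPM in Collagen I, and fell 3.61-fold (log2 -1.85 ± 0.21, adjusted p = 5.5e-05). On this scale of 3′ ends, which does not grow with transcript length, the importer was above the exporter in every BME plate and below it in every Collagen I plate. Slc11a2 reached the cutoff through BME alone and Slc40a1 through Collagen I alone. The crossing of their matrix means therefore follows from the cutoff and is not a separate result.

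Transcripts of both genes are known to carry iron-responsive elements, short hairpins with a CAGTGN loop that bind iron regulatory proteins: in the 5′ UTR of Slc40a1 such a hairpin blocks translation when iron is low, and in the 3′ UTR of Tfrc, the transferrin receptor, hairpins stabilize the transcript. Protein-coding GENCODE transcripts on GRCm38 were searched on their own strand for a C, 5 bases, CAGTGN with a last base other than G, and 5 bases of which at least 4 can pair with the run before the loop, and such a match was found somewhere in the transcripts of 8.06% of 21877 genes. The 28-base sites are printed because the 2 most changed iron carriers share the loop, which is in capitals.
Slc40a1, 5′ UTR, chr1:45925465-45925492, minus strand: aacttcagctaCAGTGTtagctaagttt
Slc11a2, 3′ UTR, chr15:100395153-100395180, minus strand: gccatcagagcCAGTGTgtttctatggt
In Slc40a1 5 of the 5 bases next to the loop could pair across the stem, and in Slc11a2 4 of 5. A match is a description of the letters and not a measure of binding. Tfrc, looked at after the values of these carriers were seen, had 4 such matches in its 3′ UTR and was at 282, 262 and 284 CPM in BME versus 173 and 163 CPM in Collagen I (log2 -0.70 ± 0.13, adjusted p = 0.0017). In non-basal wells, defined below, Tfrc was also lower (log2 -0.79 ± 0.16, edgeR adjusted p = 0.0017). In basal wells it was not called (log2 -0.32 ± 0.23, edgeR adjusted p = 0.36). Among the mitochondrial members linked to iron, Slc25a37, mitoferrin-1, fell 1.85-fold. Slc25a28, mitoferrin-2, was at 47.2 to 56.4 CPM in BME versus 42.3 and 43.1 CPM in Collagen I and was not called.

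Slc39a4, the zinc importer ZIP4 (chr15:76612383-76617384, minus strand), fell most of all members. It was at 205, 122 and 139 CPM in BME versus 35.5 and 25.7 CPM in Collagen I, 4.96-fold lower (log2 -2.31 ± 0.27, adjusted p = 6.5e-05). Other zinc carriers of the same SLC39 family moved in both directions: Slc39a13 rose 2.08-fold, Slc39a1 1.67-fold, Slc39a10 1.66-fold and Slc39a7, which releases zinc from the endoplasmic reticulum, 1.51-fold, and Slc39a6 fell 1.71-fold. Of the SLC30 family, which moves zinc out of the cytosol, Slc30a5 fell 1.57-fold, and Slc30a4, Slc30a7 and Slc30a9 were not called. Slc41a1, a magnesium carrier, was at 17.7, 20.4 and 17.8 CPM in BME versus 46.6 and 40.3 CPM in Collagen I, a 2.37-fold rise (log2 1.24 ± 0.18, adjusted p = 3.2e-04). The copper importer Slc31a1, at 64.3 to 76.6 CPM in BME and 93.8 and 83.4 CPM in Collagen I, was not called.

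Of the 17 mitochondrial carriers 9 were lower (52.9%) and 1 was higher (5.88%) in Collagen I, and the median log2 fold change was -0.54. Of tested genes at or above the cutoff 23.6% were lower and 19.5% higher. Slc25a33, among those called lower, reached the cutoff through BME alone. Slc25a5, an ADP/ATP carrier (ANT2) and the most abundant member (chrX:36795651-36798807, plus strand), was at 1095, 1064 and 1166 CPM in BME versus 515 and 401 CPM in Collagen I (2.40-fold lower, log2 -1.26 ± 0.16, adjusted p = 1.0e-04). This gene has processed copies elsewhere in the genome, and how reads shared with them were counted is not given in the sources used here. Slc25a3, the phosphate carrier, was at 420, 538 and 534 CPM in BME versus 221 and 192 CPM in Collagen I (2.39-fold lower, log2 -1.25 ± 0.16, adjusted p = 1.0e-04). Slc25a4, the ADP/ATP carrier ANT1, fell 1.65-fold, Slc25a39, a carrier of mitochondrial glutathione, 2.06-fold, and Slc25a12, an aspartate glutamate carrier, 2.00-fold. The ADP/ATP and phosphate carriers supply the ATP synthase inside the organelle with its substrates. Slc25a13, the paralog of Slc25a12, was at 17.0 to 24.1 CPM in BME versus 33.7 and 24.7 CPM in Collagen I and was not called. The exception was Slc25a1, the citrate carrier that exports citrate for lipid synthesis, at 144, 112 and 110 CPM in BME versus 208 and 170 CPM in Collagen I (1.57-fold higher, adjusted p = 0.0084). Transcripts of the mitochondrial genome, which are counted from another chromosome, took 13.9% to 17.7% of counts in BME and 9.17% and 9.97% in Collagen I.

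**Figure D2:**
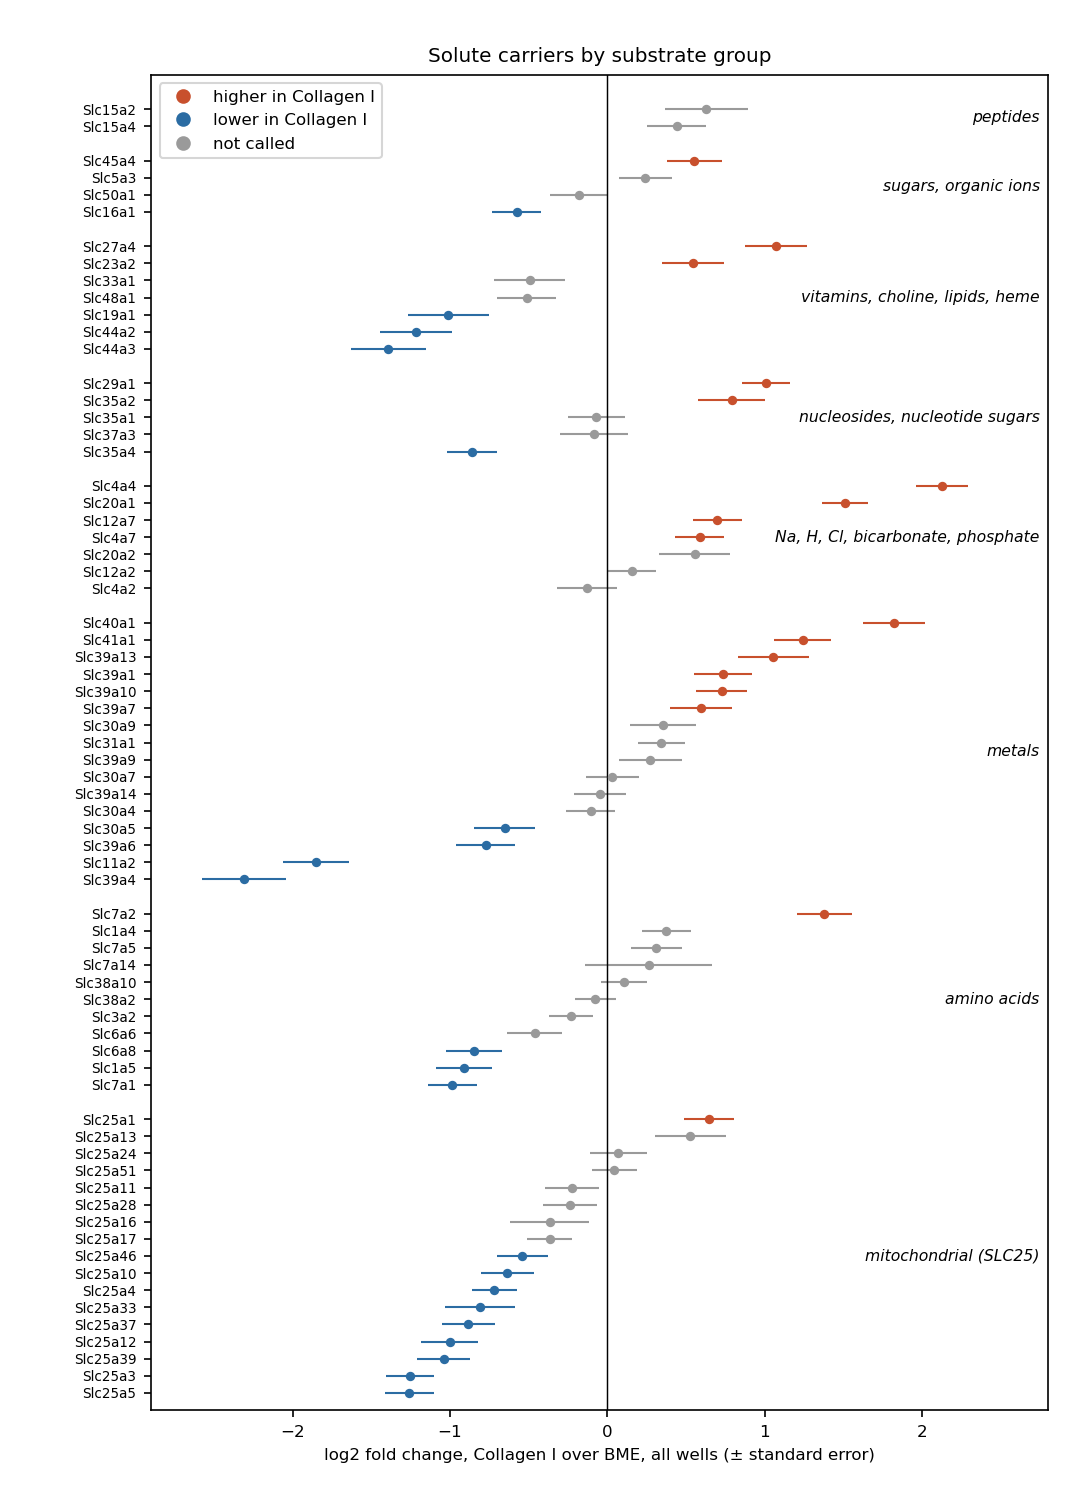
Log2 fold change between Collagen I and BME over all wells for the members reported by name, grouped by substrate, with the standard error of the fit as bars (orange, called higher; blue, called lower; grey, not called). The mitochondrial group holds 9 members called lower and 1 called higher, Slc25a1, and the group of sodium, proton, chloride, bicarbonate and phosphate carriers holds 4 called higher and none called lower.

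Of the 11 amino acid carriers 1 was higher (9.09%) and 3 were lower (27.3%) in Collagen I, beside 19.5% and 23.6% of tested genes at or above the cutoff. Slc7a2, a carrier of arginine and lysine (CAT2), was at 22.0, 20.0 and 19.9 CPM in BME versus 58.2 and 47.6 CPM in Collagen I, a 2.60-fold rise (log2 1.38 ± 0.17, adjusted p = 1.1e-04). Its relative Slc7a1 (CAT1), which carries the same amino acids, went the other way, from 110, 104 and 93.1 CPM to 55.1 and 46.7 CPM (1.98-fold lower, adjusted p = 6.5e-04), a call that was lost with cycling wells left out, over all wells and in basal and non-basal wells. On the same scale Slc7a1 exceeded Slc7a2 on every BME plate, whereas in Collagen I both lay between 46.7 and 58.2 CPM. Slc1a5, the glutamine carrier ASCT2, fell 1.88-fold, a call also lost with cycling wells left out, and Slc6a8, the creatine carrier, 1.80-fold. The most abundant of the group, Slc3a2 (the 4F2 heavy chain that brings several amino acid carriers to the cell surface) and Slc38a2 (the neutral amino acid carrier SNAT2), were not called, with 324 to 385 CPM and 285 to 322 CPM in BME and 299 and 284 CPM and 276 and 285 CPM in Collagen I.

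Of the remaining carriers, Slc29a1, the equilibrative nucleoside transporter ENT1 (chr17:45585200-45599606, minus strand), was the second most abundant member and was at 496, 389 and 376 CPM in BME versus 840 and 835 CPM in Collagen I (2.01-fold higher, log2 1.01 ± 0.15, adjusted p = 4.7e-04). In the Golgi, Slc35a2, which carries UDP-galactose, rose 1.73-fold, and Slc35a4 fell 1.82-fold. Slc27a4, a fatty acid transport protein, rose 2.10-fold. The choline transporter-like genes Slc44a2 and Slc44a3 fell 2.32-fold and 2.62-fold, and Slc19a1, the reduced folate carrier, 2.01-fold. Slc16a1, the monocarboxylate carrier MCT1, fell 1.49-fold. Slc45a4 and Slc23a2, an ascorbate carrier, were called higher with the smallest changes, 1.47-fold and 1.46-fold, and these calls were lost in 8 and 12 of 15 alternative settings.

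Proteins that work with the carriers were taken from short lists. Bsg (basigin), the chaperone that takes MCT1 to the cell surface, was at 770, 666 and 631 CPM in BME versus 2693 and 2587 CPM in Collagen I (log2 1.95 ± 0.15, adjusted p = 3.2e-06), opposite in direction to Slc16a1 itself. Of 3 carrier chaperones, Bsg was higher, Emb lower and Nptn not called. Of 6 sodium and calcium pump subunits 2 were higher and 3 lower, among the latter Atp1b1 and Atp1b3, beta subunits of the sodium pump (log2 -1.12 ± 0.22 and -1.31 ± 0.15). Of the mitochondrial pyruvate carrier subunits and outer membrane channels, Vdac1 was higher, Vdac3 lower, and the other 3 of 5 were not called. Of 7 ABC exporters tested, Abcc4 and Abcb1b were lower, and of 3 organic anion transporting polypeptides Slco2a1 was higher.

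Promoter sequences of RefSeq (GRCm38.p6, the 250 bases before the first listed start) matched 51 of the 70 members. The E-box CACGTG, the site of Myc and related factors, stood in 9 of the 51 windows (17.6%) and in 6.05% of 27025 promoters, and in members called in both directions. Both strands were searched, and as the E-box contains the letters ACGTG, its windows also hold that motif. Of these, 4 are shown, with the E-box in capitals, because they were called higher (Slc20a1 and Slc25a1) and lower (Slc16a1 and Slc30a5). Slc25a33, also called lower, holds an E-box in a window that overlaps an annotated gene, and it is not shown.
Slc20a1, chr2:129198586-129198615, plus strand: gccagccagtccCACGTGgaccagctcctc
Slc25a1, chr16:17928441-17928469, minus strand: cgctccagacgCACGTGtctctaaactgc
Slc16a1, chr3:104638452-104638481, plus strand: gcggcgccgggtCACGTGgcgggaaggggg
Slc30a5, chr13:100833471-100833500, minus strand: gtgaagcgaagcCACGTGtccaccagcgcg
The TEAD motif CATTCC stood in 5 of 51 member windows (9.80%) and in 12.6% of all promoters, and the AP-1 motif TGANTCA in 4 (7.84%) and in 6.87%. None of the 14 matched members that were higher in Collagen I held either of them in this window, and of 13 matched members that were lower, 3 held the TEAD motif and 1 the AP-1 motif. The GC box GGGCGG stood in 36 windows (70.6%) and in 32.9% of all promoters. These shares describe letters in a short window and were not tested.

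Wells were then split by the basal keratins Krt5, Krt14 and Krt17, which mark basal-like cells. The study reports that only a subset of these cells leads invasion in Collagen I. Of the wells that passed the study's filter (319, 318 and 307 in BME, 251 and 305 in Collagen I), those with at least 5 keratin counts per 10000 were called basal (96, 114 and 92 in BME, 88 and 138 in Collagen I) and those under 2 non-basal (190, 166 and 181, and 133 and 144). The split follows a threshold and is not a cell type. Some basal wells rested on a single keratin count: 7, 16 and 7 in BME and 12 and 19 in Collagen I. Over all wells Krt17 was higher in Collagen I (log2 1.62 ± 0.17, edgeR adjusted p = 3.1e-05), and Krt5 and Krt14 were not called. The same threshold can therefore admit different wells in each matrix, and the part of this in the class results was not tested. All 6 markers of the basal list, which includes the 3 keratins of the split, were higher in basal wells (median log2 4.26), and 4 of 7 luminal markers were lower. Of the basal list, Krt17, Cdh3 and Itga6 were higher in basal wells of Collagen I than in those of BME. Trp63 was lower there, and Krt5 and Krt14 were not called. The luminal markers summed to 1151 to 1256 CPM in basal wells of BME and to 3900 and 3935 CPM in those of Collagen I, and to 2445 to 2814 CPM and 4126 and 4522 CPM in non-basal wells. In basal wells 4 of the 6 luminal markers tested were higher in Collagen I, Krt8, Krt18, Csn3 and Epcam, and none was called lower. Cd14 was at 516, 344 and 361 CPM in basal wells of BME and at 275 and 269 CPM in those of Collagen I, and Elf5 was at 0 in the latter.

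**Figure D3:**
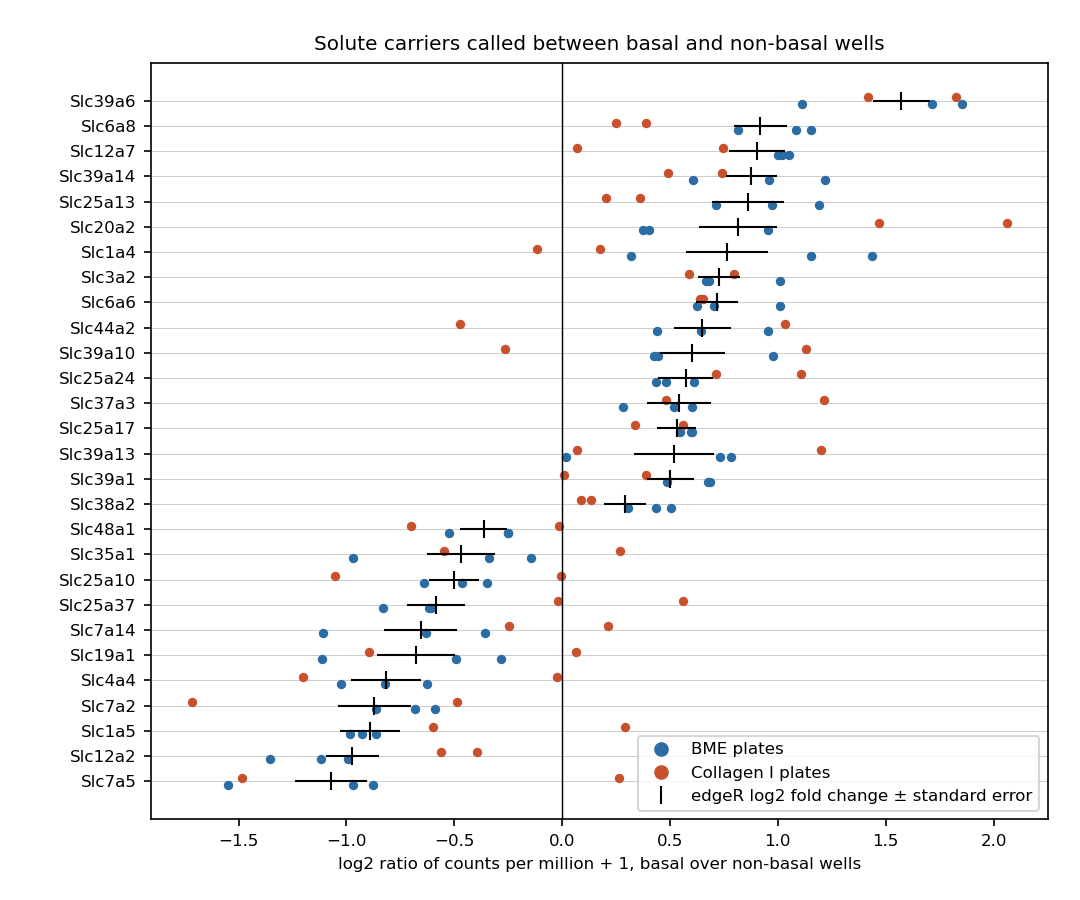
Log2 ratio of CPM plus 1 in basal over non-basal wells for the members called between the classes and reported by name, with 1 point per plate (BME blue, Collagen I orange) and the fitted log2 fold change with its standard error in black. Slc39a6 leads at 1.57, above 0 in all 5 plates, and Slc7a5 stands lowest at -1.07, with 1 Collagen I plate above 0.

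Between basal and non-basal wells of the same plates, with the plate as a block, 18 members were higher and 11 lower in basal wells. The background was 14.1% of 10862 tested genes higher and 13.6% lower, against 25.7% and 15.7% of the members, and among genes at or above the cutoff it was 16.1% and 16.8%. In 15 of the 18 and 5 of the 11, all 5 plates had the same direction. Slc39a6, the zinc importer ZIP6, differed most. It was at 103, 102 and 80.1 CPM in basal wells of BME and at 27.7, 30.5 and 36.5 CPM in non-basal ones, and at 52.0 and 69.2 CPM against 18.9 and 18.8 CPM in Collagen I (2.97-fold higher, log2 1.57 ± 0.13, adjusted p = 8.4e-07). The classes did not overlap within either matrix. No metal carrier was lower in basal wells, and 5 of 16 were higher, among them Slc39a14 (ZIP14), 1.84-fold.

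Of the 11 amino acid carriers 5 were higher (45.5%) and 4 lower (36.4%) in basal wells, beside 16.1% and 16.8% of genes at or above the cutoff. All 5 plates had the same direction in 4 of those higher and in 1 of those lower. Slc6a8 (creatine), Slc6a6 (taurine), Slc3a2, Slc1a4 and Slc38a2 were higher, by 1.89-fold, 1.65-fold, 1.66-fold, 1.70-fold and 1.22-fold. Slc3a2 was at 622, 433 and 449 CPM in basal wells and at 308, 272 and 280 CPM in non-basal wells of BME, and at 399 and 399 CPM against 265 and 230 CPM in Collagen I (log2 0.73 ± 0.10, adjusted p = 5.9e-05). Slc7a5, the light chain LAT1 that pairs with Slc3a2 to carry leucine and other large neutral amino acids, went the other way. It was at 49.9, 40.3 and 47.5 CPM in basal and at 92.3, 120 and 94.0 CPM in non-basal wells of BME (log2 -1.07 ± 0.17 over 5 plates, adjusted p = 2.5e-04). In Collagen I it was at 52.0 CPM against 147 CPM in replicate 1 and at 90.5 CPM against 75.2 CPM in replicate 3, where the direction turned. Slc1a5, the glutamine carrier, was at 28.2 to 28.6 CPM in basal and at 52.8 to 56.7 CPM in non-basal wells of BME. In Collagen I it was at 24.8 and 13.3 CPM against 20.0 and 20.7 CPM, and it was called lower in basal wells over the 5 plates (1.85-fold) although replicate 1 of Collagen I went the other way. Slc7a2 was 1.83-fold lower.

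Of the 8 carriers of sodium, protons, chloride, bicarbonate and phosphate 3 were higher and 2 lower in basal wells. Slc12a2 (NKCC1), which brings chloride into the cell, was at 148, 148 and 134 CPM in basal and at 379, 296 and 292 CPM in non-basal wells of BME, and at 218 and 234 CPM against 322 and 309 CPM in Collagen I (1.96-fold lower in basal wells, log2 -0.97 ± 0.12, adjusted p = 4.0e-05). Slc12a7 (KCC4), which takes chloride out with potassium, was at 63.4, 57.1 and 57.3 CPM in basal and at 30.8, 27.0 and 28.2 CPM in non-basal wells of BME, and at 91.7 and 61.2 CPM against 54.2 and 58.3 CPM in Collagen I (1.87-fold higher, log2 0.90 ± 0.13, adjusted p = 1.3e-04). The importer was thus lower and the exporter higher in basal wells of all 5 plates. Slc4a4 was 1.76-fold lower in basal wells.

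Wells with cycling transcripts were 39.5% to 53.3% of basal and 55.2% to 65.7% of non-basal wells in BME, and 15.9% and 18.8% against 27.1% and 27.8% in Collagen I. With cycling wells left out, 9 members were higher and 6 lower in basal wells, and without the plate as a block 5 members were called in all. Slc39a6, Slc39a14, Slc3a2 and Slc12a2 were called in all 18 alternative settings, whereas Slc39a13 and Slc38a2 lost the call in 11 of 17 and 9 of 18.

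The matrix was then compared within each class. In basal wells 11 members were higher and 13 lower in Collagen I, beside a background of 10.8% and 8.31% of 10296 genes, and among genes at or above the cutoff of 13.9% and 11.3%. In non-basal wells 18 were higher and 17 lower, beside 14.1% and 13.9% of 11076 genes, and among genes at or above the cutoff of 17.5% and 18.6%. Every called member had its Collagen I plates outside the range of the BME plates. In both classes 8 members were higher and 10 lower, none was called in opposite directions, and 29 were called in neither. Those higher in both included Slc4a4 (5.25-fold in basal and 4.21-fold in non-basal wells), Slc40a1 (4.02-fold and 3.57-fold), Slc20a1, Slc41a1 and Slc25a1. Those lower in both included Slc11a2 (4.33-fold and 3.29-fold), Slc39a4 (2.87-fold and 6.42-fold), Slc25a5 (2.58-fold and 2.28-fold), Slc25a3 (2.51-fold and 2.20-fold), Slc25a39 and Slc7a1. Of the mitochondrial carriers 5 of 17 were lower in basal and 8 of 17 in non-basal wells, and Slc25a1 was the 1 called higher in each class.

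The counts per class rested on few plates and shallow wells. In basal wells 6 members were higher and 6 lower without Collagen I replicate 3. In non-basal wells 7 were higher and 11 lower without Collagen I replicate 1, and 9 and 12 without replicate 3. A call in one class alone does not show a difference between the classes, and that difference was tested as an interaction.

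**Figure D4:**
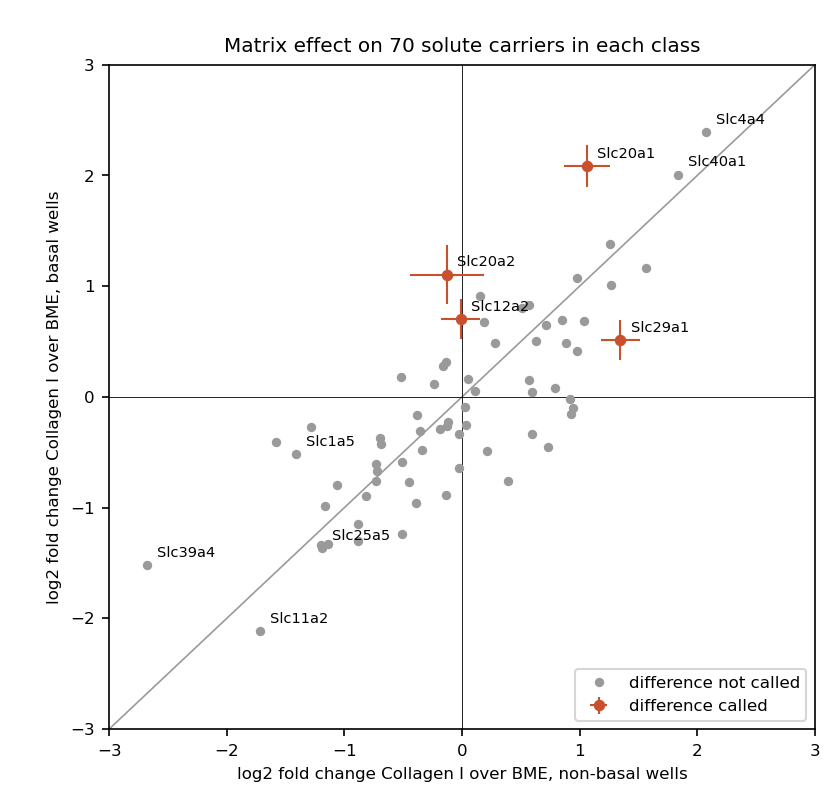
Log2 fold change between Collagen I and BME in basal wells (vertical axis) against that in non-basal wells (horizontal axis) for the 70 members, with the line of equal effects. Members whose difference was called are in orange with standard errors: Slc20a1, Slc20a2 and Slc12a2 lie above the line and Slc29a1 below it.

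The matrix effect was more positive in basal wells for 3 members and more negative for 1, beside a background of 1.45% and 2.84% of 10862 genes, and among genes at or above the cutoff of 2.23% and 4.36%. All 3 of the former carry sodium with phosphate or chloride. Slc20a1 was at 53.2, 57.1 and 61.6 CPM in basal and at 62.5, 47.5 and 68.9 CPM in non-basal wells of BME, where the classes overlapped. In Collagen I it was at 250 and 224 CPM in basal and at 121 and 126 CPM in non-basal wells (difference of the log2 fold changes 0.95 ± 0.21, adjusted p = 0.0048). Slc20a2, the related carrier PiT-2, was at 29.0, 49.9 and 50.2 CPM in basal wells of BME and at 102 and 79.9 CPM in those of Collagen I, while non-basal wells were at 22.2, 37.5 and 25.4 CPM and at 23.6 and 28.2 CPM (difference 1.20 ± 0.34, adjusted p = 0.038). Slc12a2 was higher in Collagen I in basal wells (1.63-fold) and was called in neither direction in non-basal wells (difference 0.63 ± 0.17, adjusted p = 0.026).

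Slc29a1 was the member with the more negative effect. In non-basal wells it was at 455, 339 and 351 CPM in BME versus 939 and 977 CPM in Collagen I (2.54-fold higher), and in basal wells at 591, 483 and 455 CPM and at 739 and 676 CPM (1.43-fold higher). It stood higher in basal than in non-basal wells on each BME plate and lower on each Collagen I plate (difference -0.90 ± 0.13, adjusted p = 1.2e-05). Its rise in basal wells alone was lost in 14 of 18 settings, but the difference was called in all 17. Without Collagen I replicate 1, Slc29a1 was the 1 member called for the difference. The calls of Slc20a1, Slc20a2 and Slc12a2 were lost there, and in 3, 8 and 6 of 17 settings in all.

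**Figure D5:**
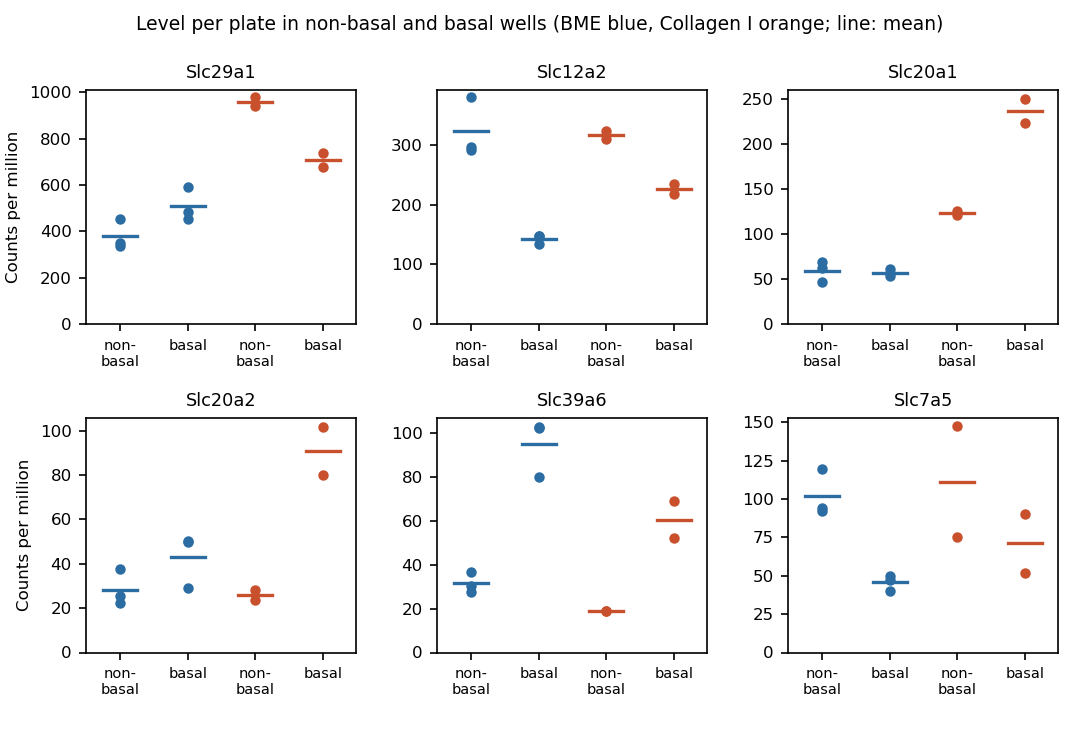
Level in CPM of 6 members in non-basal and basal wells, with 1 point per plate (BME blue, Collagen I orange) and a line at the mean. Slc29a1 stands highest in non-basal wells of Collagen I, Slc20a1 and Slc20a2 stand highest in basal wells of Collagen I, and Slc39a6 is higher in basal than in non-basal wells of both matrices.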

How the data were processed

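The authors deposited expected counts per gene and well: numbers of distinct UMIs corrected for UMI saturation and not normalized, of which UMIs of 6 bases gave back 99.0% to 99.9% as whole numbers (the labels give 4 bases). The submitters' processing notes name BWA and mm10, without versions. Every plate uses the same 384 well barcodes. ERCC rows were removed. Wells passed with over 500 counts, under 8000 genes and under 10% of counts from symbols starting with mt-. No doublet caller was run.

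Counts were summed per plate, or per plate and class, rounded, filtered with filterByExpr and tested with edgeR 4.0.16 (TMM, quasi-likelihood, adjusted p under 0.05, R 4.3.3). Classes were compared with the plate as a block. Folds are edgeR's and differ slightly from ratios of CPM. In simulations with 200 changed genes the test recovered 55% of 2-fold and 81% of 4-fold changes between matrices (13 false calls among 11958 genes), 34% and 69% in basal wells, 45% and 82% in non-basal wells, 79% and 94% between classes, and 20% and 63% for the interaction. The changed genes were drawn from all tested genes and were fewer than the genes called in the data. These rates are therefore not the recovery for the members. Alternatives were DESeq2 1.42.0, other scalings, no filter on low counts, abundant genes left out, plates left out, the saturation correction undone, other well filters, thinning to 2000 counts, cycling wells left out and a replicate block. Leaving out wells with fibroblast transcripts was added after seeing the data.

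Members and lists were chosen with earlier results of these data known. Named genes are the 10 most abundant members, those nearest the cutoff, up to 10 called per direction and comparison with plates apart, those called in the interaction, up to 4 per substrate group, and partners. Slc1a4, Slc7a5, Slc25a28, Slc39a10, the SLC30 carriers, Slc4a11 and Tfrc were named outside this rule, with their values already seen. Positions are from GENCODE vM21 (GRCm38, the assembly of mm10) for 70 of 70 members. Figures were drawn with matplotlib 3.10.9. Single values of some items are not reported here.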

Additional observations from a re-analysis of the deposited data

Results flagged for a closer look

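The matrix effect differed between basal and non-basal wells by the interaction test for 4 carriers: -0.899 on the log2 scale for Slc29a1, 0.630 for Slc12a2, 0.949 for Slc20a1 and 1.20 for Slc20a2. A negative value means a smaller or more negative change in basal wells. The luminal markers in basal wells, at 1151 to 1256 CPM in BME and 3900 and 3935 CPM in Collagen I, moved with the same contrast, although they also rose in non-basal wells, from 2445 to 2814 CPM to 4126 and 4522 CPM, and Cd14 and Elf5 did not rise, and their part in these differences was not tested. Of 10 cycling markers 7 were called more negative in basal wells by the interaction test and none more positive, beside 2.84% and 1.45% of all tested genes. With cycling wells left out, the interaction calls of Slc20a1 and Slc20a2 were lost and those of Slc29a1 and Slc12a2 kept. Leaving wells out also removes counts, and the part of cycling in these differences was not tested.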

How the results depend on the processing

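The call counts over the 70 members were 38 for the matrix over all wells, 24 in basal wells, 35 in non-basal wells, 29 between the classes and 4 for the interaction. Leaving out each plate in turn gave 23 to 42, 12 to 27, 18 to 38, 20 to 31 and 1 to 7. Thinning each well to 2000 counts gave 12 in basal wells, 19 in non-basal wells, 10 between the classes and 1 for the interaction, with only 38, 50, 51 and 51 members left to test. Leaving out cycling wells gave 15 between the classes and 2 for the interaction, and leaving out the plate block gave 5 between the classes; the cause was not tested. With the replicate number as a replicate block the counts were 43, 24 and 36. No source used here says that the numbers pair the plates, so the block has no stated basis in the design. The correlation of the plates' deviations was -0.01 to 0.01. With 2 Collagen I plates these deviations mirror each other, so the correlation cannot show whether the numbers pair. Among the named genes the block removed the calls of Slc23a2 and Slc45a4 over all wells, of Slc29a1 and Slc7a2 in basal wells, and of Slc19a1 in non-basal wells. One named carrier turned: Slc48a1 between the classes, at 0.13 on the log2 scale in thinned wells (adjusted p = 0.83) against -0.36. Of the 35 named carriers called over all wells 16 kept the call in every setting, of 24 in basal wells 8, of 31 in non-basal wells 12, of 23 between the classes 4 and of 4 for the interaction 1. Without a filter on low counts the median log2 fold change of all genes was -0.22, -0.23 and -0.25 in the 3 matrix comparisons. Simulated 2-fold changes in basal wells were recovered in 34% of genes, which were drawn from all tested genes and not from the members.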

Other observations

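Of 217 solute carriers under the cutoff, with Slc2a1 and Slc7a11 not among them, 97 could be tested between the matrices, and 14 were higher (14.4%) and 15 lower (15.5%) in Collagen I, beside 16.0% and 17.7% of all tested genes. Slc4a11, named after its values were seen, lay just under the cutoff at 18.5 CPM over the 5 plates. It was at 9.36, 9.86 and 10.1 CPM in BME versus 39.2 and 23.8 CPM in Collagen I (log2 1.73 ± 0.24, edgeR adjusted p = 2.0e-04). In basal wells it was at 21.3, 21.0 and 20.8 CPM in BME versus 112 and 50.6 CPM in Collagen I, and in non-basal wells at 3.09 to 4.80 CPM and at 9.43 and 9.41 CPM. It was thus higher in basal than in non-basal wells of all 5 plates (log2 2.59 ± 0.21, adjusted p = 7.1e-07), a larger difference between the classes than that of any member.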
